A study of Mus musculus with 8 samples.

Results

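This account covers 10 noncoding RNAs of the mouse frontal cortex that build cellular machinery or hold ribosomal or nuclear RNA sequence. They were taken by symbol from a count table of 55536 gene rows: Rn7s1, Rn7s2, Rn7sk, Rmrp, Rpph1, Gm42418, Malat1, Neat1, Miat and Snhg11. Rmrp has 2 rows, so the 10 symbols stand for 11 rows, and 9 of these held counts. The study removed HAR123, an enhancer lying inside the Smg6 gene, from the mouse germline and asked which genes respond in a region tied to flexible behaviour. WT and HAR123-KO mice were both 8 weeks old, and total RNA depleted of ribosomal RNA was sequenced from 4 libraries of each genotype. The WT animals were littermates, the deletion was made with Cas9 in C57BL/6J zygotes, and the line was backcrossed to C57BL/6J. It is a constitutive deletion, so every cell of the cortex carried it. The labels do not state that each library came from a separate animal, and p-values then measure only the spread between these libraries.

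The small RNAs of the group are made by RNA polymerase III. 7SL RNA, encoded by Rn7s1 and Rn7s2, is the scaffold of the signal recognition particle, which brings ribosomes making secreted and membrane proteins to the endoplasmic reticulum. 7SK RNA, encoded by Rn7sk, holds the elongation factor P-TEFb inactive together with Hexim proteins. Rmrp and Rpph1 are the RNA cores of RNase MRP, which cleaves precursor ribosomal RNA, and RNase P, which trims the leader of precursor tRNAs. The long RNAs are products of RNA polymerase II. Malat1 gathers in nuclear speckles, Neat1 is the scaffold of paraspeckles, Miat is a nuclear RNA of neurons, and Snhg11 is a host gene of small nucleolar RNA whose row the annotation types as protein coding. Gm42418 is a row over ribosomal RNA sequence.

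The name of the group held for only some of its rows in this table. Per kilobase of annotated exon, the mean over the 8 libraries was 4564544 normalized counts for Gm42418, which ranked 1 of all rows. It was 251768 for Rn7s1 and 198964 for Rn7sk, at ranks 7 and 9. Malat1 followed with 7121 normalized counts per kilobase at rank 49, and Snhg11 with 511 at rank 190. Miat stood at 111 normalized counts per kilobase and rank 1392, Rpph1 at 22.7 and rank 7087, and Neat1 at 13.7 and rank 9890. Neither row of Rmrp had a count in any library. The last of these RNAs were therefore not abundant as counted here, and the sequences that follow show which bases of the small RNAs are covered by another row.

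The 7SL, RNase MRP and RNase P rows are partly or wholly covered by other rows on the same strand. For RNase MRP and RNase P RNA, printed first, capitals mark the bases that no other row covers on the same strand, and small letters mark the covered bases. All sequences are the GENCODE M21 transcripts on GRCm38, written from the 5′ end. The longer Rmrp row lies at chr4:43492783-43493063 on the minus strand, with 10 of 281 bases free. Rpph1 lies at chr14:50807449-50807767 on the minus strand, with 86 of 319 bases free, and its first 300 bases (chr14:50807468-50807767) are printed.
Rmrp: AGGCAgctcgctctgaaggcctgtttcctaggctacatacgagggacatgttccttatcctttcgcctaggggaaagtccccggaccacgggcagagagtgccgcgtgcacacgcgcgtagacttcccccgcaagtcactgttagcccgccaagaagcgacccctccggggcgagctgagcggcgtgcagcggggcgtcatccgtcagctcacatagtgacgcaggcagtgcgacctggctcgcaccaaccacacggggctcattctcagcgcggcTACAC
Rpph1: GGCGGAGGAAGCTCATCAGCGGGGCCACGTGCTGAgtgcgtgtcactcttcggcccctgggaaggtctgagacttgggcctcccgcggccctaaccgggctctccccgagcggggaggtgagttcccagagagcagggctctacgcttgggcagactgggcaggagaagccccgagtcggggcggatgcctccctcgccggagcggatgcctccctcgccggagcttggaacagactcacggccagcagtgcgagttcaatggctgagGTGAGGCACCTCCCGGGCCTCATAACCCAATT
In the second pair, capitals mark the first 241 bases, which are identical in Rn7sk (chr9:78175303-78175633, minus strand, 331 bases) and in Gm24447 (chr15:93234363-93234700, plus strand), a copy of 7SK of 338 bases. The first 300 bases of each are printed (chr9:78175334-78175633 and chr15:93234363-93234662). They are shown because the reads of 7SK and of this copy can be told apart only beyond the capitals.
Rn7sk: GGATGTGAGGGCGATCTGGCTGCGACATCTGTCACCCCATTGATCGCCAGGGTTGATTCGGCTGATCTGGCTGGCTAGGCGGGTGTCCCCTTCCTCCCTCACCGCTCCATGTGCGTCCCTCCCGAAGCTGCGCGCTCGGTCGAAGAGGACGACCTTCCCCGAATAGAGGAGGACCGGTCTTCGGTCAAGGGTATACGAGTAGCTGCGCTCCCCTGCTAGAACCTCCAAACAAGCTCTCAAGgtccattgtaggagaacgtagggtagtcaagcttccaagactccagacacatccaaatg
Gm24447: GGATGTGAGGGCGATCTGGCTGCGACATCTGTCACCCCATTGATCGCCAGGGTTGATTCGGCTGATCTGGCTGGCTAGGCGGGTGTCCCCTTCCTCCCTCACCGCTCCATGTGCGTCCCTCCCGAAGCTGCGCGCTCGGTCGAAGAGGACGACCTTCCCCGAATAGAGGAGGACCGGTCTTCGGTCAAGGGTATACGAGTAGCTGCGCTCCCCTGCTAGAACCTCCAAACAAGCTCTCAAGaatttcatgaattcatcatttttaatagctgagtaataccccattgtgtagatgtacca

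Coverage by another row on the same strand went with empty rows across the whole table. Of 765 rows with every exon base covered on the same strand, 764 had no count in any library (99.9%), and the highest sum over the 8 libraries was 1. Of 460 rows with every exon base covered on the opposite strand only, 340 were empty (73.9%), and the highest sum was 4658. Of 43640 rows with no covered base, 22099 were empty (50.6%). The shorter Rmrp row of 271 bases is covered in full by the longer one, and the longer one is covered to 96.4%. Both were at 0 counts, which allows a share of up to 2.22e-05% of a library, where 3 counts are taken as the limit. That limit holds for reads the table could assign, and the level of Rmrp cannot be read from it. Rpph1, covered to 73.0% by Ccnb1ip1, had between 4 and 14 raw counts. Gm42418 has no covered base on its own strand and 99.5% of its bases covered on the opposite strand, and it held 7719490 to 9678133 raw counts.

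**Figure D1:**
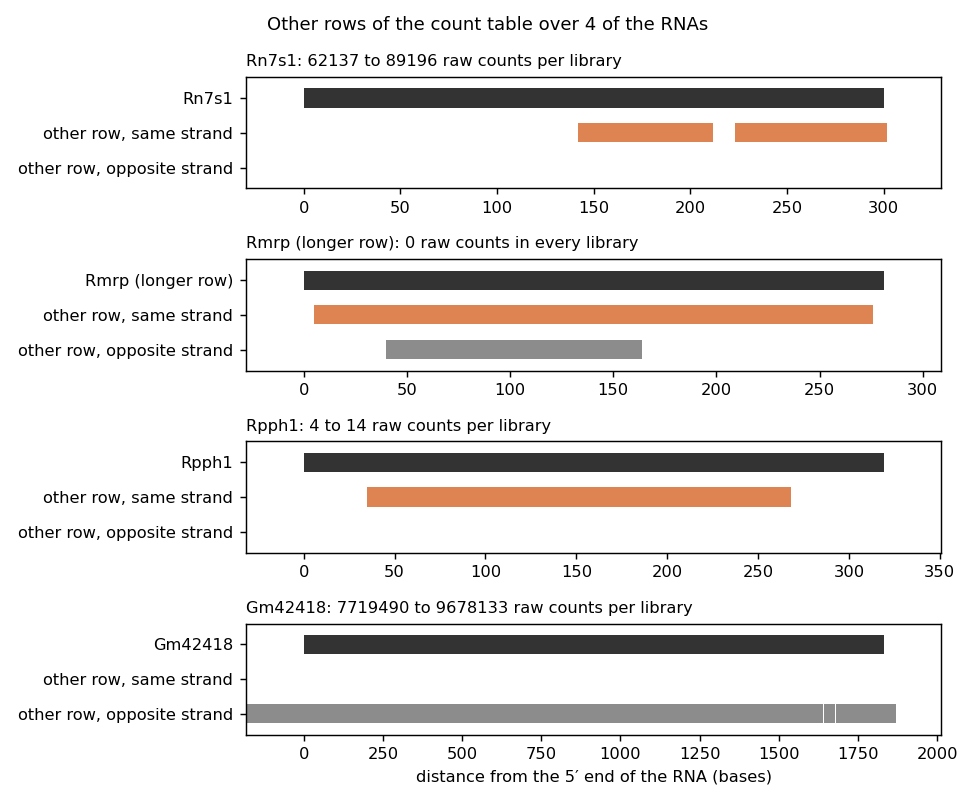
Position of other rows of the count table over 4 of the RNAs, with the distance from the 5′ end of each RNA in bases on the horizontal axis and 1 line each for the RNA, for other rows on its strand and for other rows on the opposite strand, drawn as far as 10% of the RNA's length beyond each end. The covered stretch takes 49.0% of Rn7s1, 96.4% of the longer Rmrp row and 73.0% of Rpph1 on the same strand, and Gm42418 is covered on the opposite strand.

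Total counts ran from 13528251 to 17051001 per library, and 2782243 to 3726699 of them lay on nuclear protein-coding genes other than Lars2 and Snhg11. The 10 RNAs together held 59.3% ± 0.511 (SD, n = 4) of all counts in the WT libraries and 57.8% ± 0.977 (SD, n = 4) in the HAR123-KO libraries, with an exact permutation p of 0.0857 (two-sided). Without Gm42418 they held 1.74% ± 0.0464 of WT counts against 1.96% ± 0.0536 of HAR123-KO counts (SD, n = 4). Every HAR123-KO library was above every WT library in this second sum, at an exact permutation p of 0.0286, the smallest that 70 assignments of the libraries allow. Both sums count the 7SL rows separately, Rn7s1 at 0.476% in WT and 0.551% in HAR123-KO and Rn7s2 at 0.474% and 0.550%. Shares of single genes averaging 10 or more counts did not overlap for 7.3%, with HAR123-KO higher for 5.47%. In all, 3 rows were higher in HAR123-KO (Rn7s1, Rn7s2 and Rn7sk) and 2 were lower (Miat and Snhg11) at an adjusted p under 0.05 by DESeq2, out of 8 rows that were tested. This level was passed by 1.69% of the 12758 genes tested, 0.972% of them higher and 0.713% lower. The share called was higher among abundant genes. Where the mean normalized count reached 1000, it was 12.6% of 621 genes, with 6.28% higher and 6.28% lower. Where the mean reached 40000, it was 58.3% of 12 genes, 6 of them higher and 1 lower. These 12 include 5 of the RNAs described here, and both minimums were chosen after the values were seen. None of the 8 rows also passed the absolute log2 fold change of 0.5 that the study sets for this tissue, a limit passed by 0.298% of the genes tested (38 genes). By edgeR the count past both limits was also 0, against 0.503% of the genes it tested. At an adjusted p under 0.05 alone, edgeR called 6 of the 8 rows, 3 higher and 3 lower, against 2.28% of its genes, and Gm42418 was the row it added. At an unadjusted p under 0.05 by DESeq2 with no fold limit, 7 of the 8 rows passed, against 8.78% of the genes tested. The 7SL rows have the same sequence and nearly equal counts, so the 5 rows called were read as 4 RNAs. With Rn7s2 left out of the fit, 4 of 7 rows passed the adjusted p.

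**Figure D2:**
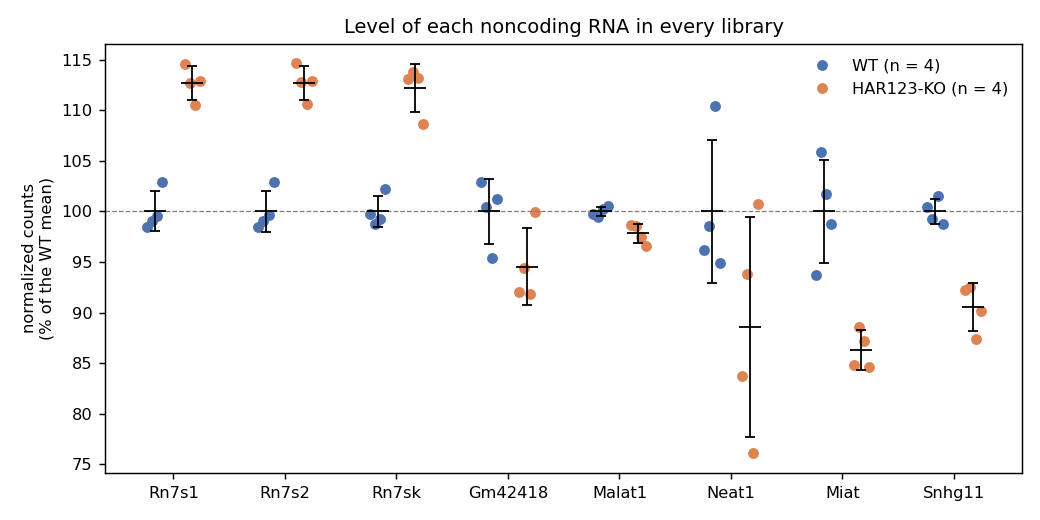
Normalized counts of each RNA as a percent of its WT mean on the vertical axis, with 1 point per library (4 WT, 4 HAR123-KO) and a bar for the mean with 1 SD. The HAR123-KO points lie above all WT points for Rn7s1, Rn7s2 and Rn7sk, and below all WT points for Malat1, Miat and Snhg11, while Gm42418 and Neat1 overlap.

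7SL RNA was higher in the HAR123-KO cortex. In normalized counts (counts divided by the DESeq2 size factor of the library), Rn7s1 read 69955, 70332, 70733 and 73087 in WT replicates 1 to 4. In HAR123-KO replicates 1 to 4 it read 81391, 80058, 78528 and 80159. The lowest HAR123-KO library was above the highest WT library, and the means were 71027 ± 1410 and 80034 ± 1173 normalized counts (SD, n = 4), a rise of 12.7%. The log2 fold change was 0.17 ± 0.02 (SE), with an adjusted p of 2.09e-15 by DESeq2 and of 7.84e-08 by edgeR. As a share of all counts, the same row went from 0.476% ± 0.0141 to 0.551% ± 0.013 (SD, n = 4) and again did not overlap between genotypes (exact permutation p = 0.0286, and 0.391 after adjustment over all genes). Over 14514 genes that averaged 10 or more counts, shares did not overlap for 7.3%, with HAR123-KO higher for 5.47%, and normalized counts did not overlap for 7.19%, with HAR123-KO higher for 3.76%.

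Rn7s2 gave nearly the same values. Its sequence is identical to Rn7s1 in 300 of 300 bases and it is also covered to 49.0% by other rows, microRNA rows that were all at 0. Rn7s1 exceeded it by only 178 to 219 raw counts in the 8 libraries, at most 0.293% of the Rn7s1 count, with an SD of 13.3 between libraries. A random split of the sum between the rows would give differences with an SD of 352 to 422 counts. The rows were therefore read as 1 measurement, and how reads that match both were assigned was not tested beyond these values. Its log2 fold change was 0.17 ± 0.02 with an adjusted p of 2.09e-15 by DESeq2. Rn7s1 made up 50.07% of the sum of both rows in WT and 50.06% in HAR123-KO, with an exact permutation p of 0.143.

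Other copies of 7SL were far less counted. At 90% identity over 50% of the RNA's length or more, 7 rows matched Rn7s1, and 3 of these, Rn7s2 among them, averaged 10 or more counts. Rn7s6, named after its values were seen, had a mean of 7531 raw counts and a log2 fold change of 0.14 ± 0.12 (adjusted p = 0.850, DESeq2). Its raw counts were 6527 to 7511 in WT and 6266 to 9055 in HAR123-KO, so the groups overlapped. Gm26461, the other of the 3 and likewise named after its values were seen, averaged 20.2 raw counts and had a log2 fold change of -0.46 ± 0.31 (adjusted p = 0.755, DESeq2). Neither passed by edgeR.

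7SK RNA was higher in HAR123-KO by a similar amount. Rn7sk read 61944, 61283, 61643 and 63458 normalized counts in WT replicates 1 to 4, and 70189, 70637, 70258 and 67443 in HAR123-KO replicates 1 to 4. No HAR123-KO library fell into the WT range, and HAR123-KO replicate 4 was the lowest of its group. The means were 62082 ± 956 and 69632 ± 1473 normalized counts (SD, n = 4), a rise of 12.2%. The log2 fold change was 0.17 ± 0.02 (SE), with an adjusted p of 1.89e-13 by DESeq2 and of 4.77e-07 by edgeR. Its share of all counts was 0.416% ± 0.00969 for WT libraries and 0.479% ± 0.0196 for HAR123-KO libraries (SD, n = 4), without overlap (exact permutation p = 0.0286).

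No copy of 7SK passed an adjusted p of 0.05 by DESeq2, and 2 passed by edgeR. Of 11 rows that matched Rn7sk, 4 averaged 10 or more counts, 3 with a positive log2 fold change and Gm24146 at -0.08 ± 0.35. Gm24447, which shares the 241 capitals above, held 35.9% to 40.5% of the Rn7sk count of its library and had a log2 fold change of 0.14 ± 0.06 (adjusted p = 0.402 by DESeq2 and 0.00636 by edgeR). Gm26315 differed from Gm24447 by 28 to 52 raw counts, at most 0.192%, so both rows again had nearly equal counts. By edgeR Gm26315 had the same adjusted p of 0.00636. Gm26035 had a log2 fold change of 0.14 ± 0.05 (adjusted p = 0.154 by DESeq2 and 0.0828 by edgeR). These 4 rows were named after their values were seen. Reads inside the 241 shared bases cannot be told apart between Rn7sk and Gm24447, and the other 3 rows were 96.1% to 99.6% identical to Rn7sk over their aligned bases.

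The ratio between the polymerase III RNAs did not move measurably. For every 100 raw counts of Rn7s1 and Rn7s2 together, a library held 43.8 ± 0.390 counts of Rn7sk for WT against 43.6 ± 1.17 for HAR123-KO (SD, n = 4). The groups overlapped, with an exact permutation p of 0.743. Without HAR123-KO replicate 4 the difference turned from -0.203 to 0.278 counts, still inside the spread. The sum takes in both 7SL rows, which were read as 1 measurement, so the ratio does not give 7SK per 7SL molecule. Mean raw counts over the 8 libraries were 66585 for Rn7sk and 76314 for Rn7s1 alone.

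RNase MRP and RNase P RNA could not be compared with any precision. Rmrp was at 0 in each library, so no ratio to Rpph1 was formed. Rpph1 had 5, 8, 12 and 4 raw counts in WT replicates 1 to 4 and 6, 5, 14 and 6 in HAR123-KO replicates 1 to 4. The groups overlapped throughout, at 7.08 ± 2.63 for WT against 7.40 ± 3.36 for HAR123-KO in normalized counts (SD, n = 4). Its log2 fold change was 0.06 ± 0.51 (SE), with a 95% interval from -0.94 to 1.05, and DESeq2 gave it no adjusted p because its mean was under the filter.

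Gm42418 took the largest share of every library. It held 58.0%, 57.5%, 56.8% and 57.7% of the counts of WT replicates 1 to 4, and 55.1%, 55.7%, 55.3% and 57.4% of those of HAR123-KO replicates 1 to 4. The 95% Wilson interval of each of these shares was at most 0.0263 points to either side. The groups overlapped through HAR123-KO replicate 4, which lay above WT replicate 3. The mean share was 57.5% ± 0.548 for WT against 55.9% ± 1.03 for HAR123-KO (SD, n = 4), at an exact permutation p of 0.0571. On normalized counts the log2 fold change was -0.08 ± 0.04 (SE), with an adjusted p of 0.450 by DESeq2 and a 95% interval from -0.15 to -0.01. The edgeR test called the same row at an adjusted p of 0.000464. Without HAR123-KO replicate 4, the log2 fold change was -0.11 and the DESeq2 adjusted p was 0.0124, over 7146 genes tested in place of 12758. The DESeq2 call thus differed with and without that library, while edgeR called the row with all 8 libraries.

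Other rows with ribosomal RNA sequence did not share 1 direction. The mitochondrial ribosomal RNAs mt-Rnr1 and mt-Rnr2, which are transcribed in the mitochondrion, were higher in HAR123-KO, with log2 fold changes of 0.16 ± 0.02 (adjusted p = 7.58e-13, DESeq2) and 0.11 ± 0.02 (adjusted p = 4.17e-05, DESeq2). Lars2, which encodes a mitochondrial leucyl-tRNA synthetase and draws ribosomal reads, was lower at -0.13 ± 0.02 (adjusted p = 2.75e-05, DESeq2). Of the neighbours of Gm42418, CT010467.1, which overlaps it on the opposite strand, had a log2 fold change of -0.08 ± 0.14 (adjusted p = 0.965, DESeq2). Gm26917, which lies within 10 kb of Gm42418 on the same strand, had a log2 fold change of -0.26 ± 0.15 with an adjusted p of 0.688 by DESeq2 and 0.00344 by edgeR. The part of ribosomal RNA depletion in these values was not tested.

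**Figure D3:**
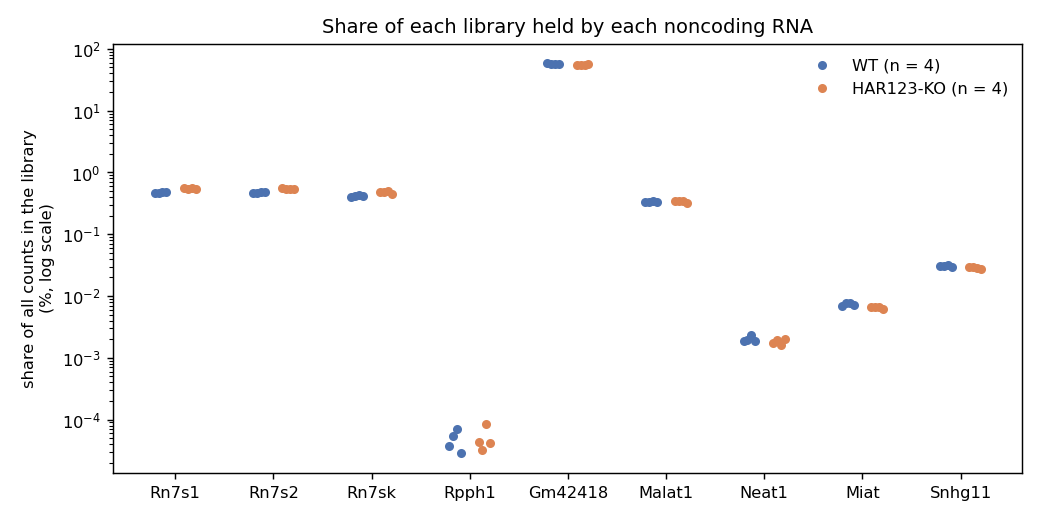
Share of all counts of a library held by each RNA, in percent on a log scale on the vertical axis, with 1 point per library (4 WT, 4 HAR123-KO). Gm42418 holds 55.1% to 58.0% of each library, and the shares of the others range down to those of Rpph1, which rest on 4 to 14 raw counts.

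Among the long nuclear RNAs, Malat1 was nearly level. Its normalized counts were 50143, 50018, 50414 and 50535 in WT replicates 1 to 4, and 49599, 49544, 49028 and 48554 in HAR123-KO replicates 1 to 4. Every HAR123-KO library was below every WT library, yet the gap was small, at 50278 ± 238 against 49181 ± 491 normalized counts (SD, n = 4) or 2.18% of the WT level. The log2 fold change was -0.03 ± 0.02 (SE), with an adjusted p of 0.572 by DESeq2 and 0.578 by edgeR, while the exact permutation p of the normalized counts was 0.0286. Normalized counts fell without overlap for 3.42% of the genes averaging 10 or more counts. The direction depended on the scaling: as a share of all counts Malat1 held 0.337% ± 0.00853 for WT against 0.339% ± 0.00978 for HAR123-KO (SD, n = 4), with overlap and an exact permutation p of 0.771.

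Neat1 was low and variable. It read 289.3, 296.5, 332 and 286 normalized counts in WT replicates 1 to 4, and 252, 282, 229 and 303 in HAR123-KO replicates 1 to 4. HAR123-KO replicate 4 lay among the WT libraries, so the groups overlapped. The means were 301 ± 21.3 and 267 ± 32.8 normalized counts (SD, n = 4). DESeq2 gave a log2 fold change of -0.18 ± 0.08 (SE) and an adjusted p of 0.461. Its 95% interval ran from -0.35 to -0.02, and edgeR gave an adjusted p of 0.181. Without HAR123-KO replicate 3 the log2 fold change was -0.11, and as a share of counts the log2 ratio went from -0.14 to -0.07 without WT replicate 3 and to -0.08 without HAR123-KO replicate 3. For every 1000 counts of Malat1, which is transcribed from the same stretch of chromosome 19, there were 5.98 ± 0.418 counts of Neat1 for WT against 5.42 ± 0.692 for HAR123-KO (SD, n = 4), at an exact permutation p of 0.229. That difference of -0.562 counts was -0.361 without WT replicate 3, -0.311 without HAR123-KO replicate 3 and -0.836 without HAR123-KO replicate 4 (exact permutation p = 0.0571).

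Miat was lower in HAR123-KO. It read 1036, 1170, 1124 and 1091 normalized counts in WT replicates 1 to 4, and 937, 979, 963 and 935 in HAR123-KO replicates 1 to 4. All HAR123-KO libraries were below all WT libraries. The means were 1105 ± 56.3 and 954 ± 21.5 normalized counts (SD, n = 4), so the level fell by 13.7%. The log2 fold change was -0.21 ± 0.04 (SE), with an adjusted p of 0.000159 by DESeq2 and 0.000305 by edgeR. Its share of all counts fell too, with no overlap (exact permutation p = 0.0286). Shares fell without overlap for 1.83% of the genes averaging 10 or more counts.

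Snhg11 was also lower in HAR123-KO. It read 4590, 4533, 4637 and 4513 normalized counts in WT replicates 1 to 4, and 4215, 4225, 3990 and 4117 in HAR123-KO replicates 1 to 4. The groups did not overlap, with means of 4568 ± 56.2 and 4137 ± 109 normalized counts (SD, n = 4), a level that fell by 9.45%. The log2 fold change was -0.14 ± 0.03 (SE), with an adjusted p of 8.78e-06 by DESeq2 and 0.00153 by edgeR. With library totals in place of size factors it was -0.10 and the adjusted p was 0.133, so this call depended on the scaling. Library totals moved the median log2 fold change of all genes tested from 0.00 to 0.04.

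**Figure D4:**
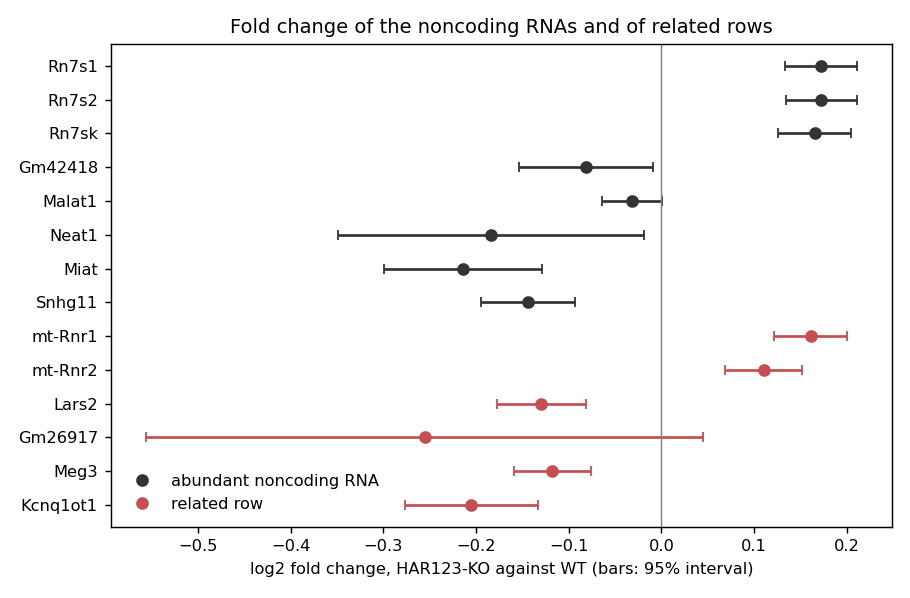
Log2 fold change of HAR123-KO against WT on the horizontal axis for 8 of the RNAs (dark) and for 6 related rows (red), with bars for the 95% interval, from DESeq2 with 4 libraries per genotype. Rn7s1, Rn7s2, Rn7sk and both mitochondrial ribosomal RNAs lie above 0 with their whole interval, Gm42418, Neat1, Miat, Snhg11, Lars2, Meg3 and Kcnq1ot1 lie below it with their whole interval, the intervals of Malat1 and Gm26917 reach 0, and every one of the 14 stays within 0.5 of 0 as a point.

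The genes of proteins that work with these RNAs were near the background, with no call where 1.69% of all genes tested were called. None of 10 tested proteins of the signal recognition particle and its receptor passed an adjusted p of 0.05 by DESeq2. Their median log2 fold change was 0.07, from -0.07 for Srp9 to 0.12 for Srp19. Srp54a, Srp54b and Srp54c, named after their values were seen, averaged 871, 872 and 790 normalized counts, at log2 fold changes of 0.07, 0.08 and 0.08. They enter this median as separate rows, and whether they share reads was not tested. None of 6 tested genes of the 7SK complex and P-TEFb passed (median -0.05), from -0.15 for Ccnt2, a cyclin of P-TEFb, to 0.13 for Mepce, the capping enzyme of 7SK. None of 9 tested protein genes of RNase P and RNase MRP passed (median -0.03). RNA polymerase III and its factors were 25 tested genes with no call and a median of 0.01. Paraspeckle proteins (8 tested, median -0.04) and nuclear speckle proteins (8 tested, median 0.00) had none either. The median over all genes tested was 0.00, and edgeR called none in these 6 lists.

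Among other long noncoding RNAs of brain, 2 of 17 tested were called, both lower in HAR123-KO, against 1.69% of all genes tested and 0.713% lower. Both averaged over 1000 normalized counts, where 12.6% of genes were called and 6.28% were lower. Kcnq1ot1, an imprinted antisense RNA, read 1729 ± 70.9 normalized counts for WT against 1501 ± 24.6 for HAR123-KO (SD, n = 4). On the log2 scale the fold change was -0.20 ± 0.04, at an adjusted p of 5.9e-06 by DESeq2. Meg3, an imprinted RNA abundant in neurons, read 11559 ± 236 normalized counts for WT against 10654 ± 143 for HAR123-KO (SD, n = 4). On the log2 scale the fold change was -0.12 ± 0.02, at an adjusted p of 8.78e-06 by DESeq2. The median of the list was -0.01, and 8 of the 17 had a positive log2 fold change.

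None of the listed small structural RNAs other than 7SL and 7SK (Y RNAs, vault RNA, telomerase RNA, minor spliceosomal RNAs and related rows) reached the test, and 4 of their 11 rows were at 0. By annotated type, 31 snRNA rows, 7 snoRNA rows, 6 scaRNA rows and 5 other misc_RNA rows were tested, and none passed by DESeq2, near the 1.69% of all genes tested. All snRNA rows together, the RNAs of the spliceosome and their copies, held 0.244% to 0.378% of the counts of a WT library and 0.283% to 0.378% of those of a HAR123-KO library. The 5 misc_RNA rows are the copies of 7SL and 7SK given above, including the 2 that passed by edgeR. Of 36 rows that overlap one of the 10 RNAs or lie within 10 kb of it, 21 were at 0 and 9 were tested, and none passed (lowest adjusted p = 0.319, DESeq2), again near that share.

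The labelled tissue held neuron and glial markers, with no listed marker at 0, and some markers moved with genotype. The counts of markers called stand against 1.69% of all genes tested (0.972% higher, 0.713% lower) and 12.6% of those averaging 1000 or more normalized counts. In summed normalized counts, 8 striatal projection neuron markers ran from 4240 to 4375 in WT and from 5634 to 5760 in HAR123-KO, and 8 of 8 tested were higher by DESeq2. The 8 choroid plexus markers summed to 954 to 1007 in WT and 1855 to 1973 in HAR123-KO, with 3 of 3 tested higher. Oligodendrocyte markers ran from 15080 to 15573 and from 17135 to 17466, with 4 of 8 higher. Astrocyte markers were lower, at 23193 to 23923 in WT and 21580 to 22187 in HAR123-KO, with 3 of 8 lower. Endothelial markers ran from 443 to 497 and from 350 to 382, with 1 of 8 lower, while neuron markers overlapped at 28340 to 29027 and 28029 to 28396, with 1 of 10 lower. Microglial markers had no call among 7 tested. The part of these markers in the levels of 7SL, 7SK, Miat and Snhg11 was not tested, and in bulk tissue fewer cells of a type and less RNA per cell cannot be told apart.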

How the data were processed

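Exon counts per gene for 8 libraries were deposited by the authors as raw counts (RNeasy Plus Mini columns, ribosomal RNA depletion, directional paired-end libraries, alignment with STAR 2.5.2b to GRCm38, and featureCounts). The settings for strand, overlapping rows and reads with several matches were not given in the sources used here. Libraries were grouped by their titles. All 55536 row identifiers matched GENCODE M21 with the same start and end, and there were 0 unused value columns.

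The 10 RNAs were taken by symbol, and they and all gene lists were chosen with earlier results of these data known. All 10 are named, and from each list the genes with an adjusted p under 0.05 or, failing that, those with the lowest and highest log2 fold change may be named. Neighbours, rows that overlap one of the RNAs or lie within 10 kb of it, may be named too. Other rows are said to be named after their values were seen.

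All 55536 rows entered 1 fit in DESeq2 1.42.0 (Wald test, R 4.3.3), with genotype as the only term, median-of-ratios size factors, a local dispersion trend and Benjamini-Hochberg adjustment over the genes above the independent filter, a mean of 17.6 normalized counts. A gene is said to be called at an adjusted p under 0.05, and to be past the threshold when its log2 fold change was also beyond 0.5 in either direction. Shares of the total count and ratios within a library were compared by the two-sided exact permutation test over 70 assignments, whose smallest p is 0.0286. Genes with a mean under 10 counts were left out of shares over all genes. Copies were found with blastn 2.17.0 at 90% identity over 50% of the RNA or more.

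Alternatives were edgeR 4.0.16 (quasi-likelihood, TMM), TMM factors, library totals or protein-coding genes as size factors, at least 10 counts in 4 libraries before the fit, the fit without independent filtering, stricter or no fold limits, other share denominators, the replicate number as a block, and leaving out each library. Counting Rn7s1 and Rn7s2 once was added after seeing the data. Deviations of same-numbered WT and HAR123-KO libraries were hardly correlated (from -0.03 to 0.03), which does not exclude pairing. The scripts were tested on simulated data. Totals were 13528251 to 17051001 counts. Wilson intervals of shares and the limit of a count of 0 cover counting error only, and intervals of log2 fold changes come from the DESeq2 standard errors. The sequence of 7SL RNA is not reported here.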

Additional observations from a re-analysis of the deposited data

Results flagged for a closer look

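In 42 groups of 4 values, 2 single libraries stood apart from the other libraries of their genotype by Dixon's test of the gap over the range at the 95% level, and chance gives about 1 in 20 groups, or 2.1 here. For Rn7sk, HAR123-KO replicate 4 read 67443 normalized counts, and replicates 1 to 3 read 70189 to 70637. It remained above the highest WT library. For Snhg11, WT replicate 3 held 0.0321% of its counts (95% Wilson interval 0.0313% to 0.0330%) and the other WT libraries held at most 0.0302%. On normalized counts the same library did not stand apart.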

How the results depend on the processing

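With the replicate number as a replicate block, 9 genes of the whole table were past the threshold, 0 of the 10 RNAs had an adjusted p under 0.05, and log2 fold changes were 0.17 for Rn7s1, Rn7s2 and Rn7sk (adjusted p 0.314, 0.314 and 0.497), -0.21 for Miat and -0.14 for Snhg11 (neither under 0.05). The labels do not say whether the numbers pair the libraries. Correlations between same-numbered libraries, from -0.03 to 0.03, cannot decide it, because the counting noise of every gene enters them. Of the WT libraries only replicate 3 correlated best with its own number. Genes past the threshold, 38 in the main setting, numbered 73 by edgeR, 3 at the stricter limits, 215 with no minimum fold (5 of them among the 10 RNAs) and 11 to 44 with 1 library left out, the lowest leaving out HAR123-KO replicate 4, and 18 for WT replicate 3. Gm42418 was called by edgeR at -0.082, and was -0.11 to -0.067 with 1 library left out. With library totals Malat1 was 0.0077 and Snhg11 -0.10, the latter with an adjusted p of 0.133.

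With 1 library left out, the log2 fold change of Rpph1 ran from -0.32 to 0.30 and that of Neat1 from -0.25 to -0.11. Log2 ratios of shares ran from 0.19 to 0.23 for Rn7sk, -0.055 to -0.035 for Gm42418, -0.0029 to 0.028 for Malat1, -0.21 to -0.15 for Miat and -0.12 to -0.080 for Snhg11, with p up to 0.0571 for those of Rn7sk, Miat and Snhg11 that missed 0.05. The Rn7s1 part of the 7SL sum changed by -0.00854 to -0.00379 points. Rn7sk per 100 counts of that sum changed by -0.612 to 0.278 and Neat1 per 1000 counts of Malat1 by -0.836 to -0.311. The share of Malat1 turned to -0.012 outside Gm42418 and the mitochondrial ribosomal RNAs and to -0.032 over protein-coding genes. The cause of these changes was not tested. Of 326 values under the alternatives, 289 kept direction and side of the threshold or, for counts, stayed within 1.5 times, and 37 did not. Rpph1 rests on 4 to 14 counts per library.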
